A study of Mus musculus with 6 samples.

Results

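Expression of insulin-like growth factor (IGF) signalling genes and IGF binding protein genes was examined in mouse otic vesicles, the epithelial precursors of the inner ear, at E11.5 (embryonic day 11.5). The group comprised 8 genes, which were the ligand Igf1, the receptor Igf1r and the binding proteins Igfbp2 to Igfbp7. All probe sets that the platform annotation assigned to one of these symbols alone were taken, which gave 24 of the 45037 probe sets that were no controls. The genes were chosen by their known place in the pathway with the difference between Mest-KO and control already seen, and in that earlier result Igfbp3 was 1 of the genes with a small p. The differences of these 24 probe sets are therefore given as a description with their error, and no test of them is reported as support.

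The Mest-KO group held 3 arrays from embryos in which the transcription factor gene Tbx1 was conditionally deleted by T-Cre, and the control group held 3 arrays from T-Cre conditional Tbx1 heterozygotes. Both groups thus carried T-Cre, and the controls were not wild type. T-Cre expresses the recombinase Cre from the brachyury (T) promoter, which is active in the early mesoderm, and the series title calls the knockout mesodermal, while the profiled vesicle is an epithelium. RNA for an array came from both ears of 3 embryos with matching genotype, pooled after dispase had been used to take off periotic tissue. The strain was not given in the sources used here. The labels call the arrays biological replicates, and nothing else describes how the pools were formed. The question put by the design is what changes in vesicle RNA after mesodermal loss of Tbx1.

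IGF ligands are secreted growth factors that bind the receptor tyrosine kinase encoded by Igf1r and signal through insulin receptor substrates to the PI3K-AKT and RAS-MAPK pathways. The binding proteins Igfbp2 to Igfbp6 hold the ligands with high affinity outside the cell, where they carry them, shield them from the receptor or, after cleavage by proteases, release them. Igfbp7 binds IGFs weakly and is counted as a related protein. In the inner ear, Igf1 is known for its part in the survival and growth of cochlear ganglion neurons and in hearing.

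The annotation placed Igfbp2 and Igfbp5 next to each other, with 0 genes between them, and likewise Igfbp3 and Igfbp1, a binding protein gene outside the group. RefSeq promoter windows were found for 8 of 8 genes (GRCm38.p6, 9 windows). The 250 bases before the start are printed for Igfbp3, at both of whose probe sets the groups did not overlap, for Igfbp5, where that held at 1 of 2, and for Igfbp4, which was read by the most probe sets. Capitals mark a match on either strand to the TATA box (TATAAA), its variant (TATATA, which can overlap it), the GC box (GGGCGG) or the core of the T-box site (AGGTGT).
Igfbp3 (chr11:7213924-7214173, minus strand): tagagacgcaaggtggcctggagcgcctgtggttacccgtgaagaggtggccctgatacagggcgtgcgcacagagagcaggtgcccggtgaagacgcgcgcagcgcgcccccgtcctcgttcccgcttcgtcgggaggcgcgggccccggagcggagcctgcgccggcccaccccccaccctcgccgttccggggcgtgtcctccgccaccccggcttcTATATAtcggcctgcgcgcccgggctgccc
Igfbp4 (chr11:99040994-99041243, plus strand): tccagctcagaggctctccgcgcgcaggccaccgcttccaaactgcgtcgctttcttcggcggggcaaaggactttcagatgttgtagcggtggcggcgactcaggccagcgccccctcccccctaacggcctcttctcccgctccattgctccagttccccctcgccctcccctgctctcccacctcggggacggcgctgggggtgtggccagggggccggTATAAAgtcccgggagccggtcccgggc
Igfbp5 (chr1:72874866-72875115, minus strand): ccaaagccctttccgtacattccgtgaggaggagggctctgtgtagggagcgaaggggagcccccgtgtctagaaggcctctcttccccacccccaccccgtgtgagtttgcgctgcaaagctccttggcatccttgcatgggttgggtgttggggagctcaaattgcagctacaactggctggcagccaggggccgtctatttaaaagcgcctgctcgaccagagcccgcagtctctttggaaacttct

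Igfbp3 held TATATA with its first base at position -30 before the start, a motif present in 5.25% of 32851 RefSeq windows of the same length. Igfbp4 held TATAAA at -28, present in 12.4% of the windows, and the Igfbp5 window held none of the motifs. GGGCGG, the GC box, was present in 32.7% of the windows, and among the 8 genes it was found before Igfbp2, Igfbp7 and Igf1r. AGGTGT was in none of the 9 windows of the 8 genes and in 11.8% of all windows. The GC content was 73.2% before Igfbp3, 69.2% before Igfbp4 and 58.8% before Igfbp5, against a median of 52.4%. These matches describe the letters of the windows only.

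All levels below are linear intensities of probe sets. A level filter removed the dimmest 40% of probe sets by their mean normalized log2 level. The cutoff on that scale stands for an intensity of 34.4 and is not a mean of the linear intensities. Epithelial markers of the labelled tissue were present, with 10 of 10 measured genes above the filter and the otoconial protein gene Oc90 between 11000 and 12450 on all arrays. Of these 10, 2 were higher and 8 lower in Mest-KO. The pools differed in sex. Xist was at 16.1 in Mest-KO 1 and the Y-linked Eif2s3y at 12.1 in control 2, against at least 2331 and 1373 elsewhere. Mest-KO 3 stood away from the other arrays, with a first principal component score of 64.6 against -20.0 to -6.65 and a median intensity of 91.0 against 62.1 to 71.0. Tbx1 itself read 704 to 910 in Mest-KO and 690 to 898 in control. The series title calls the knockout mesodermal, while the profiled vesicle is an epithelium. Whether the Tbx1 probe set reads the deleted exons was not given in the sources used here. For both reasons the level of Tbx1 does not check the labels. With 3 pools per group their number limits the precision, p-values measure the spread between these pools, and differences are Mest-KO minus control on the normalized log2 scale with the standard error (SE) of the limma fit over all probe sets.

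Of the 24 probe sets, 19 from 6 genes passed the filter, and these were all 4 of Igf1, 4 of 5 of Igf1r, the single one of Igfbp2, both of Igfbp3, all 6 of Igfbp4 and both of Igfbp5. The probe set of Igfbp6 and the 3 of Igfbp7 lay below it. Igfbp3 was higher at both its probe sets on every Mest-KO array than on any control array, Igfbp5 was lower at 1 of 2, and the remaining 16 overlapped between the groups after normalization. Limma called 0 of the 19 at an adjusted p under 0.05, as it called 0% of the 27022 probe sets tested. With a variance prior that follows level it called 0 of the 19, against 0.0518% of all. At an unadjusted p under 0.05 there were 3 of the 19, against 3.98% of all probe sets (1.74% higher and 2.25% lower), and 4 with the prior that follows level, against 4.65%. Groups did not overlap at 9.37% of all probe sets, 4.17% higher and 5.2% lower. Since the genes were chosen with this contrast known, nothing is read from the counts of members.

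**Figure D1:**
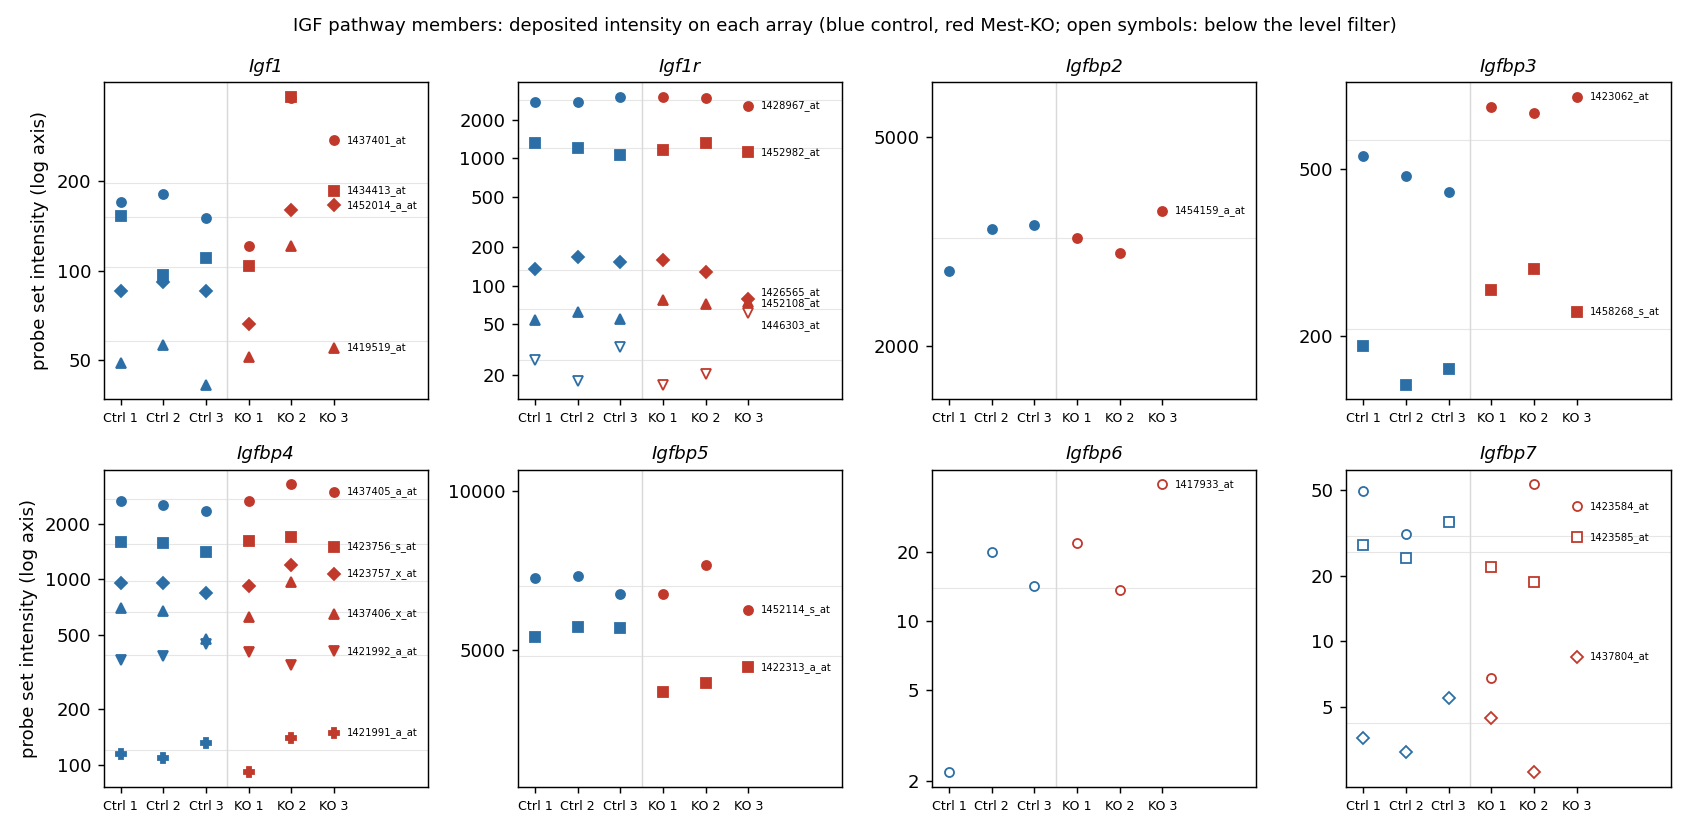
Deposited intensity (log axis) of all 24 probe sets of the 8 genes on each array, with controls in blue, Mest-KO in red, 1 symbol shape per probe set, open symbols below the level filter and pale lines at each probe set's geometric mean. Both Igfbp3 probe sets sit higher on the 3 Mest-KO arrays than on the 3 controls, the dimmer Igfbp5 probe set (1422313_a_at) sits lower on them, and Igf1 is high on Mest-KO 2.

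Igf1 encodes the ligand insulin-like growth factor 1. Its brightest probe set (1437401_at) read 121.5, 379.7 and 274.6 in Mest-KO 1, 2 and 3 and 170.3, 180.9 and 150.5 in control 1, 2 and 3. Mest-KO 2 was the highest array and Mest-KO 1 the lowest, so the control arrays lay inside the range of the Mest-KO arrays. Mest-KO pools averaged 258.6 ± 129.8 (SD, n = 3) and control pools 167.2 ± 15.4 (SD, n = 3), a log2 difference of 0.44 (SE 0.401, 95% interval -0.53 to 1.42). The other 3 probe sets of Igf1 differed by 0.65, 0.38 and 0.30, and the highest array was Mest-KO 2 at 2 of them and Mest-KO 3, at 166.1 against 160.7 on Mest-KO 2, at the other. The direction of the dimmest (1419519_at) turned, to -0.16, without Mest-KO 2. Without Mest-KO 2 the differences of 1434413_at and 1452014_a_at were 0.15 and 0.17. At 1437401_at the difference was 0.09 without Mest-KO 2, and it was 0.89 without Mest-KO 1.

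Igf1r encodes the receptor for both IGF ligands. Its brightest probe set (1428967_at) read 3043, 2966 and 2591 in Mest-KO and 2745, 2778 and 3006 in control, with overlap of the groups and a difference of 0.01 (SE 0.101, 95% interval -0.23 to 0.26). The next (1452982_at) read 1162, 1329 and 1117 against 1317, 1207 and 1071, a difference of 0.0045 (SE 0.121). The sign of both turned under median centring and when some arrays were left out. These values bound a change at the bright probe sets to within the intervals and do not show that the receptor was equal. Probe set 1426565_at read 159.1, 127.4 and 78.7 in Mest-KO and 135.7, 167.7 and 152.2 in control. The difference of -0.54 (SE 0.378) came down to -0.11 without Mest-KO 3, the lowest array. Probe set 1452108_at read 77.3, 71.3 and 74.9 against 53.6, 62.4 and 55.2, apart in the deposited values, but it overlapped after normalization (0.20, SE 0.189, and 0.08 without Mest-KO 1).

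Igfbp2 encodes a binding protein of embryonic epithelia. It read 3216, 3008 and 3618 in Mest-KO and 2781, 3335 and 3404 in control. The groups overlapped, with Mest-KO 3 the highest and control 1 the lowest array, and the difference was 0.07 (SE 0.131, 95% interval -0.25 to 0.38). Its sign turned under median centring, at -0.10, and without Mest-KO 3 or control 1. That scaling moved the median of all probe sets tested to -0.12, and relative to it Igfbp2 was at 0.02.

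Igfbp3 encodes the main IGF carrier of the blood plasma, which also acts locally in tissues. Probe set 1423062_at read 702.6, 680.7 and 745.1 in Mest-KO 1, 2 and 3 and 537.6, 481.2 and 441.0 in control 1, 2 and 3. The lowest Mest-KO array thus lay above the highest control array. The pools averaged 709.5 ± 32.7 (SD, n = 3) with the knockout and 486.6 ± 48.5 (SD, n = 3) without it, 1.45-fold higher on the normalized scale (log2 difference 0.53, SE 0.106, 95% interval 0.28 to 0.79). Probe set 1458268_s_at read 256.9, 288.3 and 228.2 against 188.7, 152.5 and 166.6, again with no overlap, and differed by 0.54 (SE 0.136). The order of the arrays within the groups was not shared: Mest-KO 3 was the highest array at the first and the lowest Mest-KO array at the second. With each array left out in turn, the differences ran from 0.47 to 0.59 at 1423062_at and from 0.44 to 0.66 at 1458268_s_at, and they were 0.55 and 0.48 with the pools of 1 sex, Mest-KO 1 and control 2, left out.

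Igfbp4 encodes a binding protein that inhibits IGF action until it is cleaved. Its brightest probe set (1437405_a_at) read 2641, 3262 and 2969 in Mest-KO and 2646, 2514 and 2337 in control. Mest-KO 2 and Mest-KO 3 were above all controls, and Mest-KO 1 lay just under control 1. The difference was 0.24 (SE 0.118, 95% interval -0.05 to 0.53). The 6 probe sets fell into 3 pairs that the annotation ties to a shared transcript record, and the pairs differed in sign. The pair of 1437405_a_at and 1437406_x_at gave 0.24 and 0.26, the latter 0.0602 without Mest-KO 2 and 0.0953 without control 3. The pair of 1423757_x_at and 1423756_s_at gave 0.21, or 0.12 without Mest-KO 2, and 0.07. The pair of 1421992_a_at and 1421991_a_at gave -0.08 (SE 0.128) and -0.02 (SE 0.171). Signs turned under at least 1 alternative at both of these and, under median centring, at 1423756_s_at. Relative to the median of all probe sets under that scaling, 1423756_s_at was at 0.05. At 1421992_a_at Mest-KO 2 was the lowest array, at 344.7, whereas it was the highest at each probe set of the other 2 pairs. The suffixes mark probe sets that match several transcripts of a gene (a), several transcripts identically (s) or that may cross-hybridise (x).

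Igfbp5, a binding protein that also attaches to extracellular matrix, showed 2 unlike probe sets. Probe set 1422313_a_at read 4161, 4324 and 4628 in Mest-KO and 5277, 5526 and 5499 in control, so every Mest-KO array lay below every control array. Its difference was -0.28 (SE 0.0953, 95% interval -0.51 to -0.04), 1.21-fold lower in Mest-KO. Probe set 1452114_s_at read 6373, 7237 and 5956 in Mest-KO and 6826, 6902 and 6376 in control. There the groups overlapped, with the highest and the lowest array both in Mest-KO, and the difference was -0.01 (SE 0.104, 95% interval -0.26 to 0.25), with a sign that turned under 5 alternatives. The gene's direction therefore rests on which probe set is read, and which transcripts each one covers was not given in the sources used here.

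Igfbp6, which prefers the ligand IGF2, was read by 1 probe set below the filter, at 22.0, 13.7 and 39.6 in Mest-KO and 2.18, 20.0 and 14.2 in control. The 3 probe sets of Igfbp7 were below it too, with a range from 2.49 to 53.1 over all of them and all arrays. At these levels the intervals were wide, from -1.31 to 4.14 for Igfbp6, and no direction is given. The remaining probe set of Igf1r (1446303_at), from 16.6 to 60.9, was also below the filter.

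**Figure D2:**
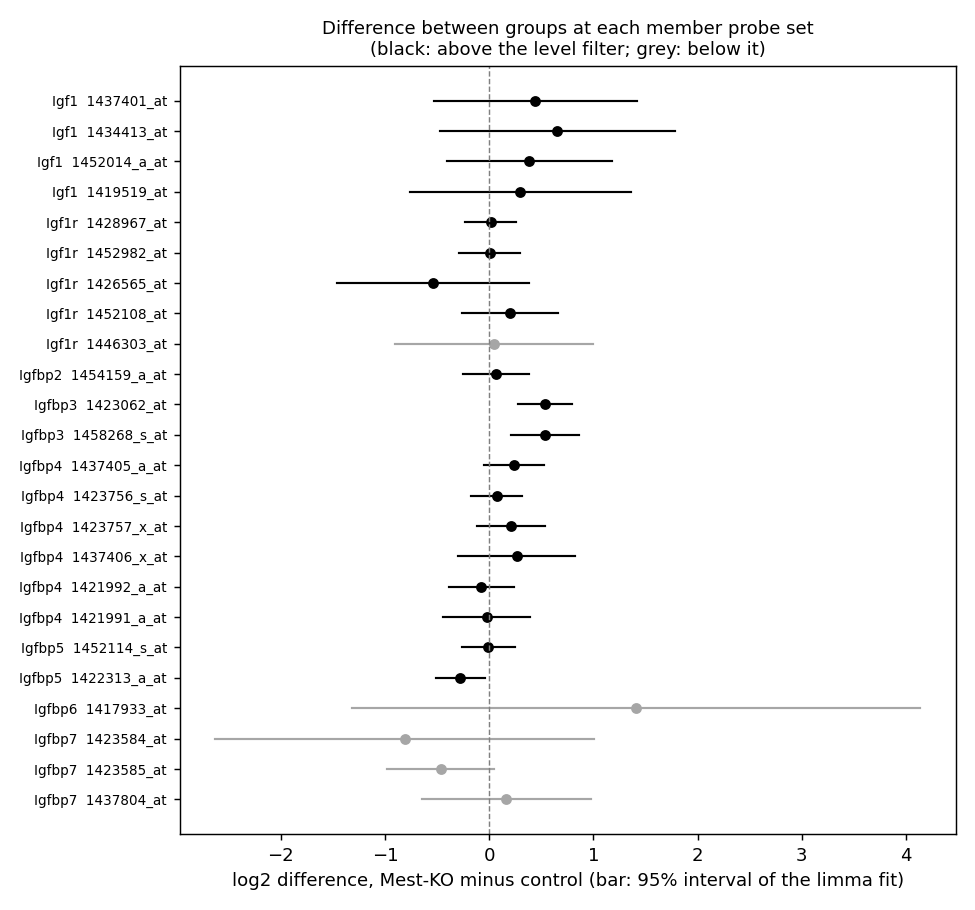
Log2 difference, Mest-KO minus control, of each of the 24 probe sets (points) with the 95% interval of the limma fit (bars), in black above the level filter and in grey below it. The intervals of both Igfbp3 probe sets lie above 0, that of 1 Igfbp5 probe set lies below 0 (-0.51 to -0.04), and the other 16 in black include 0.

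Over the 19 probe sets above the filter, 14 were higher and 5 lower in Mest-KO, with a median difference of 0.20, against a median of -0.01 over all probe sets tested, of which 48.3% were higher. With median centring in place of quantile normalization, 10 were higher and 9 lower. That scaling moved the median of all probe sets tested to -0.12, and relative to it 13 were higher and 6 lower. The median rested in part on single arrays. It was 0.06 without Mest-KO 2, and 0.12 without control 1 or without control 3. Probe sets of a gene share its transcripts and are not separate observations, and Igf1 and Igfbp4 alone gave 10 of the 19.

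Periotic mesenchyme surrounds the vesicle, and a list of 15 mesenchymal genes was read on each array. All 15 were measured, 14 passed the filter, 12 were higher in Mest-KO, and none was at 0, the lowest value being that of Meox1 at 1.42. The 3 lower ones were Pou3f4 (-0.43), Lum (-0.48) and Dcn (-0.20). Over the 6 arrays their r with Igf1 was 0.781, -0.47 and -0.169, so the list did not move as 1. The summed intensity of the 15 genes ran from 4698 to 9719 in Mest-KO and from 4284 to 7720 in control. It was lowest in control 3 and Mest-KO 1 and highest in Mest-KO 2. Over the 6 arrays of both groups, Pearson's r with the list's mean log2 level was 0.854 for Igf1 (exact permutation p = 0.0319, Spearman's rho 0.886, exact p = 0.0333). It was 0.846 for Igfbp4 (exact permutation p = 0.0347, rho 0.943, exact p = 0.0167). Without the 2 arrays farthest from the median of the list, control 3 and Mest-KO 1, r was 0.844 and 0.864. Mesenchyme was not the only list with such values. With the hindbrain list, read by 4 genes of which 3 passed the filter, r was 0.790 for Igf1 and 0.810 for Igfbp4 (exact permutation p = 0.0653 and 0.0583). Spearman's rho with the hindbrain list was 0.943 for Igf1 (exact permutation p = 0.0167), above its rho with mesenchyme, and 0.829 for Igfbp4 (exact permutation p = 0.0583). Without Mest-KO 1 and control 3, r with this list was 0.510 and 0.821. In the endothelial list 8 of 9 genes were higher in Mest-KO, but only 3 of the 9 passed the filter. With that list r was 0.710 for Igf1 and 0.778 for Igfbp4 (exact permutation p = 0.121 and 0.0431), and it fell to -0.728 and -0.225 without Mest-KO 2 and control 3. With the list of epithelial genes r was -0.906 for Igf1 (exact permutation p = 0.0125, rho -0.943, exact p = 0.0167) and -0.980 without the 2 farthest arrays, Mest-KO 2 and Mest-KO 3. For Igfbp4 it was -0.836 (exact permutation p = 0.0528, rho -0.657, exact p = 0.175) and -0.0588 without those 2. With the macrophage list r was -0.979 for Igfbp2 and 0.922 for Igfbp5 (exact permutation p = 0.0056 and 0.0167). In all, 60 relations were computed, of 6 genes with 10 lists. At an exact permutation p under 0.05 there were 8 for r and 6 for rho, and after Benjamini-Hochberg adjustment 0 for either, with smallest adjusted exact permutation p of 0.298 and 0.20. With 3 arrays per group no value within a group can be given. Only the brightest probe set of each gene entered, and Igfbp4 at 1421992_a_at ran against it (r -0.708 over 6 arrays). For Igfbp5 the one that entered was 1452114_s_at, and 1422313_a_at had r -0.153 with it. The part of these cell types in the levels of Igf1, Igfbp3 and Igfbp4 was not tested, and more cells of a type and more RNA per cell cannot be told apart in pooled tissue.

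At 1423062_at of Igfbp3 the 3 controls stood in the same order as their mesenchyme levels, but the 3 Mest-KO arrays did not. At 1458268_s_at neither group did. Pearson's r of 1423062_at with the mesenchyme list was 0.469 over the 6 arrays (exact permutation p = 0.338, adjusted 0.81, rho 0.543, exact p = 0.297, and r 0.576 without the 2 farthest arrays). Whether this differs from the r of Igf1 was not tested. The list stood at mean log2 levels of 7.42, 8.87 and 8.30 in Mest-KO 1, 2 and 3. In control 1, 2 and 3 it stood at 8.30, 8.04 and 7.10. On the same arrays 1423062_at read 702.6, 680.7 and 745.1 and 537.6, 481.2 and 441.0. The part of mesenchyme in these levels was not tested. In the endothelial list 3 of 9 genes passed the filter, with a summed intensity from 347.4 to 533.7 in Mest-KO and from 338.3 to 405.7 in control, and in the macrophage list 4 of 8 did, from 294.8 to 440.7 and from 276.9 to 724.8. None of their genes was at 0, the lowest being Kdr at 1.74 and C1qa at 1.28. Markers of neurons (7 of 7), red blood cells (5 of 5) and neural crest and glia (4 of 5) also passed the filter.

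**Figure D3:**
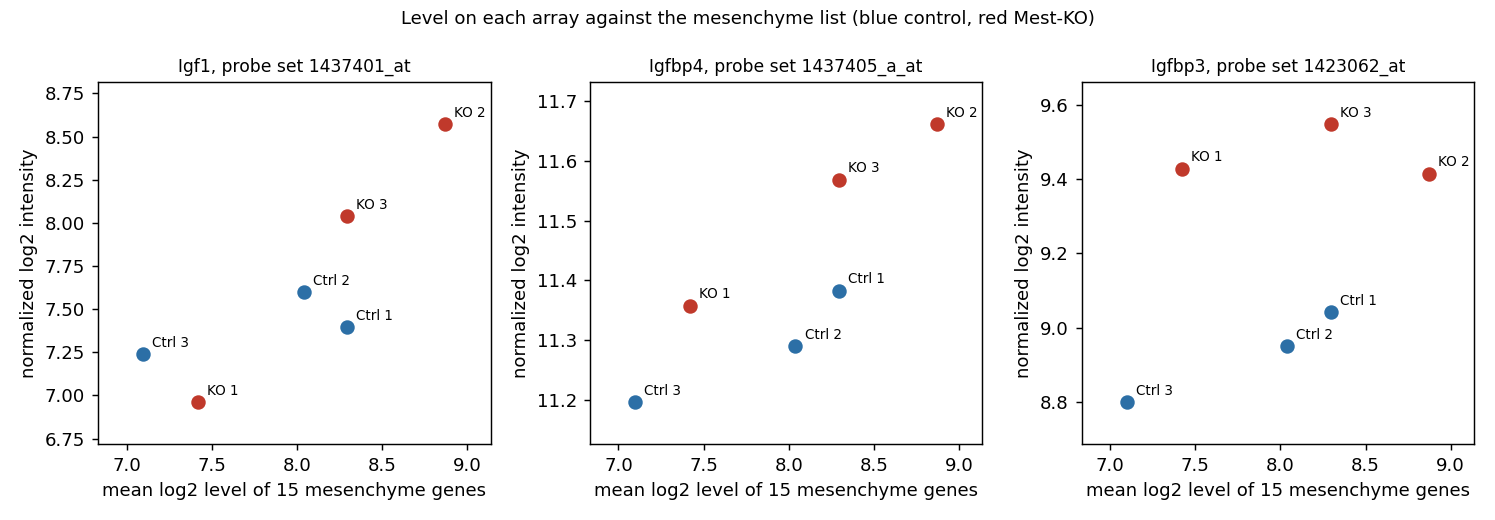
Normalized log2 intensity of Igf1, Igfbp4 and Igfbp3 at their brightest probe sets against the mean log2 level of 15 mesenchyme genes, 1 point per array, controls in blue and Mest-KO in red. Igf1 and Igfbp4 climb with the list (r of 0.854 and 0.846 over 6 arrays). For Igfbp3 (r 0.469) the 3 Mest-KO arrays stand above the 3 controls, with list levels up to 8.87 in Mest-KO and 8.30 in control. Whether the r values differ was not tested.

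The other genes of the pathway were taken from a list of 63, none of them in the group, each gene read from its brightest probe set and adjusted over all 12462 genes tested. Of the 63, 47 were tested, 7 were below the filter, and 9 were not analysed here. Limma called 0 of the 47 at an adjusted p under 0.05 and 0 with the prior that follows level, against 0% and 0.104% of all genes. At an unadjusted p under 0.05 there were 4 of 47, 2 higher and 2 lower, against 5.14% of all genes (2.23% higher and 2.91% lower). Groups did not overlap for 11 of 47, 6 higher and 5 lower, against 10.6% of all genes (4.74% and 5.85%). The median difference was 0.0087, and -0.0033 over all genes tested. With limma the smallest adjusted p among the 47 was 0.910.

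Among the other ligands and receptors, 3 of 5 were tested. Igf2, the second IGF ligand and the main one of the embryo, read 3417, 3941 and 3538 in Mest-KO and 4600, 4461 and 4382 in control. All Mest-KO arrays were below all controls, with a difference of -0.28 (SE 0.0878; limma unadjusted p = 0.0187, adjusted p = 0.910). It kept its sign under all 19 alternatives, and its second probe set, dimmer, read 89.5, 54.9 and 40.2 against 128.3, 154.4 and 86.1, a difference of -1.25 (SE 0.499) with values that overlapped. Igf2r, the receptor that takes IGF2 up for degradation, read 1816, 2281 and 2187 against 1486, 1675 and 1778, with every Mest-KO array above every control. It differed by 0.35 (SE 0.129; limma unadjusted p = 0.0326, adjusted p = 0.910), and by 0.07 (SE 0.161) at its second probe set. Insr, the insulin receptor, read 714.2, 717.0 and 629.0 against 606.7, 579.6 and 574.4. It differed by 0.21 (SE 0.0843; limma unadjusted p = 0.0471, adjusted p = 0.910). None of the 3 passed the threshold, and Igf1r, described above, overlapped between the groups.

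Of the proteases that cleave binding proteins and their inhibitors, 5 of 6 were tested, 1 higher and 4 lower. Htra3, a secreted serine protease with an IGFBP-like domain, read 167.0, 174.8 and 161.8 in Mest-KO and 206.8, 217.6 and 197.7 in control, with no overlap. Its difference was -0.37 (SE 0.112; limma unadjusted p = 0.0145, adjusted p = 0.910). Pappa2, which cleaves Igfbp5, differed by -0.44 (SE 0.199), but it was dim, at 22.6 to 55.4 in Mest-KO and 44.0 to 45.4 in control. Without Mest-KO 1 its difference was -0.22, and without both pools of 1 sex it was -0.15. Its Mest-KO 3 value was the highest of all in the deposited intensities and not after normalization. Pappa, the protease of Igfbp4, was below the filter, at 29.95 ± 7.92 (SD, n = 3) and 30.3 ± 6.19 (SD, n = 3). Stc2, an inhibitor of these proteases, differed by 0.05 (SE 0.147) and Htra1 by -0.30 (SE 0.475), both with a sign that turned under several alternatives.

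Downstream of the receptors no gene passed the test. Of 9 receptor adaptors 4 were higher and 5 lower, with the substrates Irs1 at -0.09 (SE 0.106) and Irs2 at 0.16 (SE 0.122). The inhibitory adaptor Grb10 was at 0.05 (SE 0.0784). Its sign turned under median centring, with the deposited scaling alone and with the mean of its probe sets. Of 17 tested genes of the PI3K-AKT-mTOR branch 9 were higher and 8 lower, with a median of 0.0087. Pik3ca, a catalytic subunit of PI3K, was at 0.18 (SE 0.0910) and Pdpk1, the kinase that activates AKT, at -0.26 (SE 0.135), or -0.13 without Mest-KO 3. Tsc2, a restraint on mTOR, was at 0.22 (SE 0.113), or 0.12 without control 3. Without Mest-KO 2 Pik3ca was at 0.11. Irs1 ran from -0.15 to -0.02 and Irs2 from 0.08 to 0.26 with each array left out in turn. The direction of Pik3ca turned, to -0.30, where its most variable probe set was read, a dim one at 29.0 to 59.8. Its remaining probe sets beside the brightest differed by 0.25, 0.22, 0.27 and 0.29. Of 4 tested RAS-MAPK genes 3 were higher, and of 6 tested proteins with an IGFBP-like domain 4 were higher. The binding-protein-like gene Igfbpl1 was at -0.29 (SE 0.216), or -0.12 without Mest-KO 3. Igf2bp1 and Igf2bp3, which bind IGF2 mRNA, were at 0.05 (SE 0.10) and 0.02 (SE 0.10). Both signs turned without Mest-KO 1 (-0.0082 and -0.0068), without control 3 (-0.0187 and -0.0583) and under median centring. That of Igf2bp3 also turned with its most variable probe set. Median centring moved the median of all genes to -0.14, and relative to it Igf2bp1 and Igf2bp3 were at 0.0016 and -0.008.

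**Figure D4:**
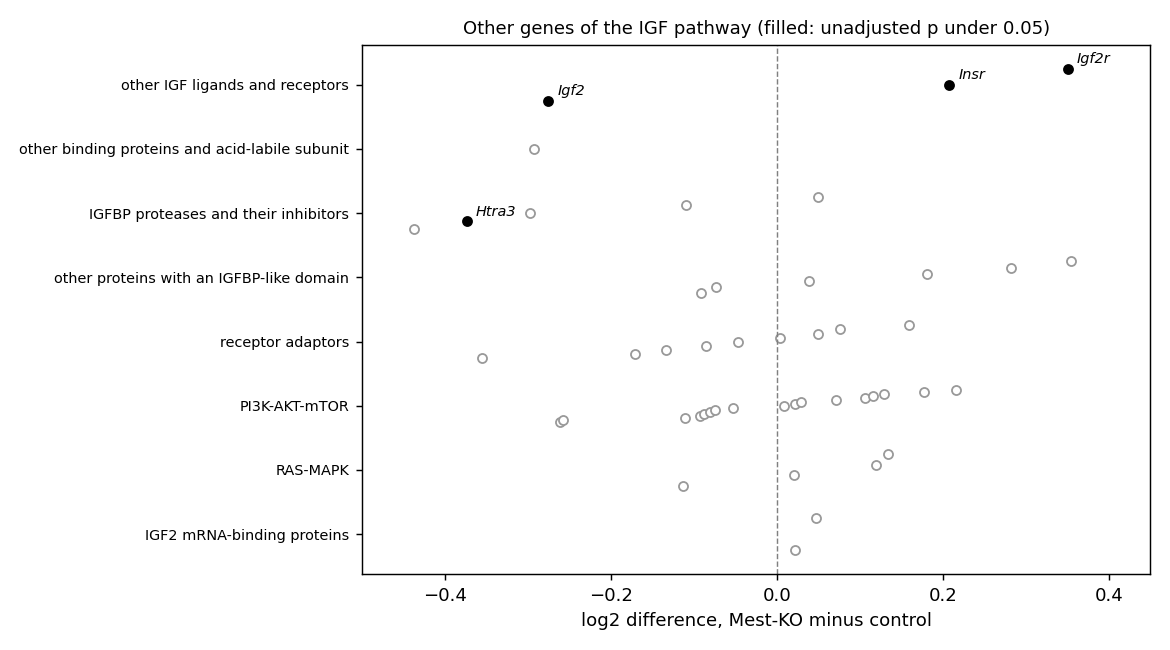
Log2 difference, Mest-KO minus control, of the 47 tested pathway genes outside the group, 1 point per gene in rows by role, filled where the unadjusted limma p was under 0.05. Igf2 and Htra3 lie to the left of 0 and Igf2r and Insr to the right, and none of the 47 passed after adjustment.

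The genes whose log2 values over the 6 arrays were most like those of each member, by Pearson's r among 12456 genes, were as follows. They are the highest of many values over few arrays, and nothing on shared control is read from them. For Igfbp3 they were Sema4f (r 0.9938), Timmdc1 (r 0.9909) and Smarcc2 (r 0.9893), which were higher in Mest-KO by 0.42, 0.18 and 0.17. For Igf1 they were Brd3 (r 0.9955), Rabl3 (r 0.9953) and Tgfbi (r 0.9940), the last a secreted matrix protein gene. Igfbp4 was most like Dhx36 (r 0.9909), Tra2a (r 0.9877) and Pbx3 (r 0.9853). Igf1r was most like Spast, Rab27b and Rapgef6 (r from 0.9814 to 0.9877), Igfbp2 like Lrrc74b, Ppp1r12b and Peg12 (r from 0.9817 to 0.9839), and Igfbp5 at 1452114_s_at like Hnrnpul1, Tbx15 and 2310022B05Rik (r from 0.9852 to 0.9893). No gene was named for more than 1 member.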

How the data were processed

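The authors used Expression Console 1.1 from Affymetrix, as the submitters' processing notes name it. Per the labels' protocols, 300 ng of total RNA was labelled after dispase treatment. The deposited table holds linear intensities, scaled so that the mean of each array without 2% of probe sets at either end is 500. Summarisation method and genome build: not given in the sources used here.

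Of 45101 probe sets, 64 were controls and were left out. The annotation gave 1 symbol to 34945, several to 932, and none to 9160. RefSeq identifiers gave current symbols for 34741. After a floor of 1 and log2, the arrays were quantile normalized. The limma package (3.58.1, under R 4.3.3; eBayes with a constant prior) compared the groups over 27022 probe sets above the 40th percentile, and over 12462 genes, each read from its brightest probe set, at a Benjamini-Hochberg adjusted p under 0.05. Probe sets below the filter were fitted without it. The limma fit alone, without the floor, normalization and filter, was tried on simulated data. The planted differences were larger than those described here, so this trial says nothing on small differences. Plots used matplotlib 3.10.9 (Python 3.11.15). The members and lists were chosen with earlier results of these data known. Genes named beside the members were the 8 pathway genes of smallest p, a fixed set of IGF genes, and the 3 genes most like each member.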

Additional observations from a re-analysis of the deposited data

Results flagged for a closer look

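Mest-KO 3 was bright at the 27 Bacillus control probe sets, which were left out of every comparison: their median there was 14.4, and at most 5.62 among the controls. Mest-KO 1 read 3.38 and Mest-KO 2 read 1.85. Fewer probe sets were dim on Mest-KO 3 as well, 18.6% below 16 where the remaining arrays had 23.5% to 26.9%. Without Mest-KO 3 the Igfbp3 differences were 0.495 and 0.66, and that of Igfbp5 at 1422313_a_at was -0.34. The part of this array's background in the results was not tested further.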

How the results depend on the processing

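The count of probe sets called, 0 in the main setting, was 1 without a filter, 9 with the filter at the 60th percentile, 15 with median centring, 14 under a prior following level, 17 if robust fitting was added and 1 at a threshold of 0.10. The count of genes, also 0, was 7, 25, 13, 16 and 7 under the last 5 of these, and 1 with the most variable probe set of each gene. No member probe set and no other pathway gene was called under any setting run. With median centring the median of the members was 0.061, and all 15 calls on probe sets were lower in Mest-KO. That scaling moved the median of all probe sets tested to -0.12, with 26.95% of them higher. Over the arrays left out in turn, the median of the members ran from 0.0602 (without Mest-KO 2) to 0.24, and both counts stayed at 0. The cause of these differences was not tested. Signs held under every alternative for both Igfbp3 probe sets (0.40 to 0.66), for Igfbp5 at 1422313_a_at (-0.46 to -0.24) and for Igf2, Igf2r, Insr and Htra3. The ends 0.40 and -0.46 came from median centring. Relative to the median of all probe sets under that scaling, Igfbp3 at 1423062_at was at 0.52 and Igfbp5 at 1422313_a_at at -0.34. Signs changed under at least 1 alternative for Igfbp2, Igf1 at 1419519_at, Igf1r at its brighter pair, Igfbp4 at 1421991_a_at, 1421992_a_at and 1423756_s_at, and Igfbp5 at 1452114_s_at. At 1423756_s_at this was under median centring alone, where it stood at 0.05 relative to the median of all probe sets. No pairing by replicate number was seen, as deviations of same-numbered arrays from their group means correlated at -0.041, -0.007 and 0.033. With so few arrays per group these values cannot exclude a pairing. With the replicate block the counts of probe sets and genes stayed at 0 and the member median at 0.20. Signal near background limits Igfbp6 and Igfbp7.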
